A study of Danio rerio with 12 samples.

Results

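The response of wild-type zebrafish embryos to camptothecin (CPT) was read from 6 of the 12 RNA-seq libraries of the series, 3 from embryos given 1 µM CPT and 3 from embryos given DMSO, the solvent of the drug. Every embryo was taken out of its chorion at 24 hours post fertilisation (hpf), exposed for 4 h and collected whole at 28 hpf, and each RNA sample pooled 30 to 50 embryos. Of the 15265 genes in the deposited count table, 11866 passed a low-count filter and were tested. The other 6 libraries came from miR-34a-/- embryos, which lack the microRNA precursor gene mir34a, and they had the same pair of treatments. They shared the estimate of spread between replicates and are used below only to ask whether a change was particular to wild-type embryos. The control is labelled as 0.005% DMSO, whereas diluting the 2 mM drug stock in DMSO to 1 µM would carry 0.05%, so vehicle and drug cannot be told apart in full. The labels do not say that replicate pools came from separate clutches, so the tests speak to variation among these pools, some of which may be technical.

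Camptothecin binds the complex of topoisomerase I with nicked DNA and keeps the nick from closing. Topoisomerase I removes the supercoils that polymerases push ahead of them, so a trapped enzyme obstructs transcription and turns into a break when a replication fork reaches it. Breaks activate the checkpoint kinases and stabilise p53, a transcription factor that turns on genes of cell-cycle arrest, of apoptosis and of its own negative feedback. At 28 hpf the embryo is still dividing and patterning, and its neurons are sending out their first axons. Gene length, which in mouse neurons is known to bear on the sensitivity of a gene to topoisomerase inhibitors, was not analysed here.

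The CPT libraries held 20301300, 25386228 and 27949054 counts, and the DMSO libraries 20239968, 21584373 and 22765208. The first principal component separated the treatments and held 83.17% of the variance, and the second, with 6.976%, spread the CPT libraries. Replicate pairs correlated across genes with a Spearman coefficient of 0.9859 to 0.9926 in CPT and 0.9937 to 0.9942 in DMSO. CPT libraries 1 and 3 stood furthest apart, with a chi-square of 69 per degree of freedom, against 17.76 to 22.21 among DMSO pairs. The 10 most abundant genes took 12.28%, 11.98% and 10.73% of the counts in the CPT libraries and 8.984% to 9.187% in the DMSO libraries, and the TMM scaling factors, which correct for such differences in composition, were 0.8349, 0.8766 and 0.9618 against 1.035 to 1.053. Levels are given throughout as counts per 1000000 (CPM) scaled by these factors, and changes as log2 fold changes of CPT over DMSO with their standard error (SE). Where a gene is given by library, libraries 1, 2 and 3 stand in order, and the CPT and DMSO ranges do not overlap unless that is said.

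Most genes differed in RNA level between CPT and DMSO embryos. At a Benjamini-Hochberg adjusted p under 0.05 in edgeR's quasi-likelihood test, 7219 of the 11866 genes (60.8%) changed, of which 3450 (29.1%) were higher and 3769 (31.8%) lower in CPT embryos. Falls were larger than rises. A change of at least 2-fold was seen in 784 higher genes (6.61%) and 2001 lower genes (16.9%), one of at least 4-fold in 143 higher and 715 lower genes, and one of at least 8-fold in 53 higher and 205 lower genes. The median of the called genes was 0.66 among those that rose and -1.06 among those that fell. All 3 CPT libraries lay above all 3 DMSO libraries for 3627 genes (30.6%) and below them for 4004 genes (33.7%). The balance of higher and lower calls depends on this correction. When libraries were scaled by their totals alone, 2025 genes were higher and 4794 lower, and the median over all genes shifted by -0.23 on the log2 scale. Changes are therefore relative to the typical gene. Where scaling by totals moves the share of tested list members called higher or lower by over 10 percentage points, those counts are given too. Such counts are to be read against the 2025 higher and 4794 lower of 11866 genes with that scaling, not against 29.1% and 31.8%. A list median near 0 can change sign through this shift of all genes alone.

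Direction went with abundance. Of the 1052 genes with a mean under 1 CPM, 12.45% were called higher and 25.1% lower, and of the 516 genes at 300 CPM or more, 54.84% were called higher and 13.18% lower. Falls of 2-fold or more were seen in 24.43% of genes under 1 CPM and in 2.519% of genes at 300 CPM or more. The median log2 fold change was -0.30 in the lowest class and 0.33 in the highest. The median SE was 0.49 in the lowest class and 0.12 in the highest, so smaller changes could be called among abundant genes.

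**Figure D1:**
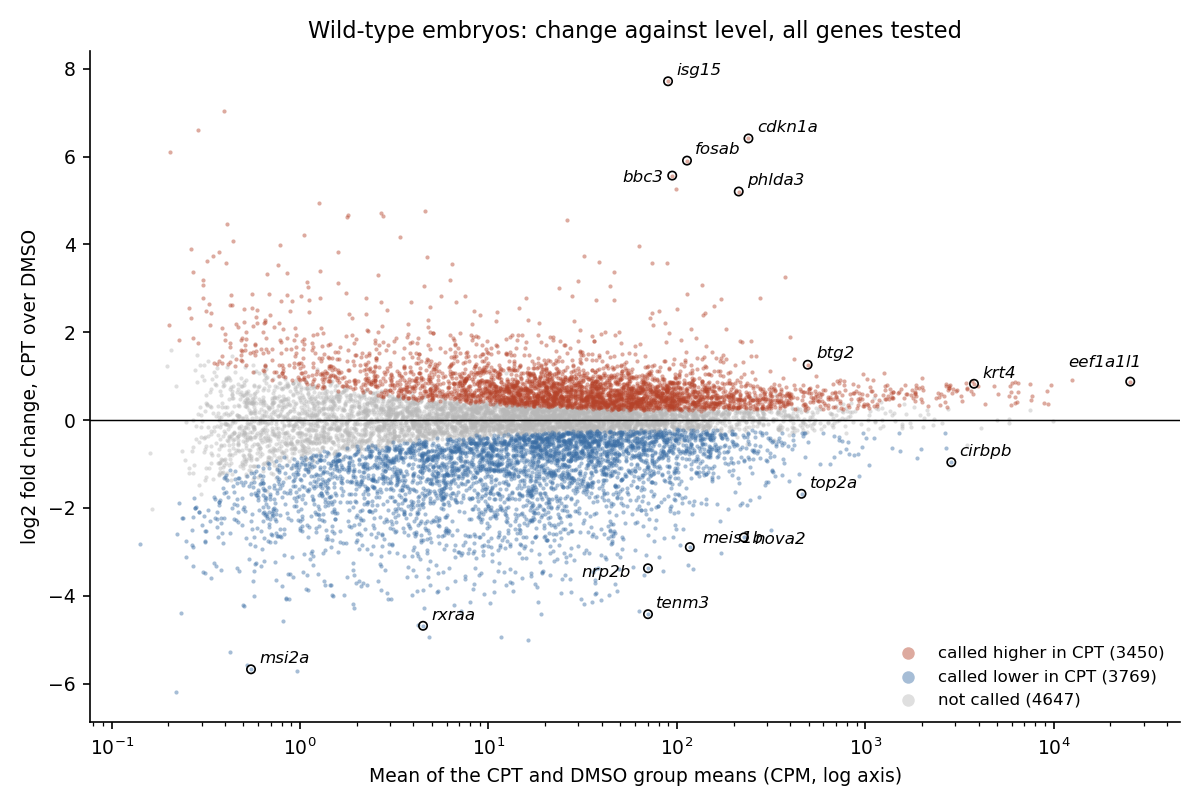
Log2 fold change of CPT over DMSO (vertical axis) against the mean of both group means in CPM (horizontal log axis) for the 11866 genes tested in wild-type embryos, with called genes in colour and 16 named genes circled. Falls of more than 4-fold are more numerous than rises of that size, and the most abundant genes lie mostly above 0.

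Genes were grouped into 65 lists by function or cell type, each filled from chosen symbols or from a pattern on the gene symbol. Lists filled by pattern go by gene name alone. Lists and members were chosen with earlier results of these data known, so their shares are descriptions and not tests. With TMM scaling each list is read against the 29.1% of all genes called higher and the 31.8% called lower. Lists were not matched for abundance, and of genes at 300 CPM or more 54.84% were called higher and 13.18% lower. Among the 52 pathway and family lists plotted, which leave out the cell type markers, the largest shares of higher members were in those of ribosomal proteins, growth arrest, ribosome biogenesis, p53 feedback and immediate early genes. The largest shares of lower members among them were in axon guidance, neural RNA binding, synapses, motor proteins and cell adhesion. Break repair, cyclins, splicing, nuclear transport and ubiquitin ligases had shares closer to those of all genes.

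**Figure D2:**
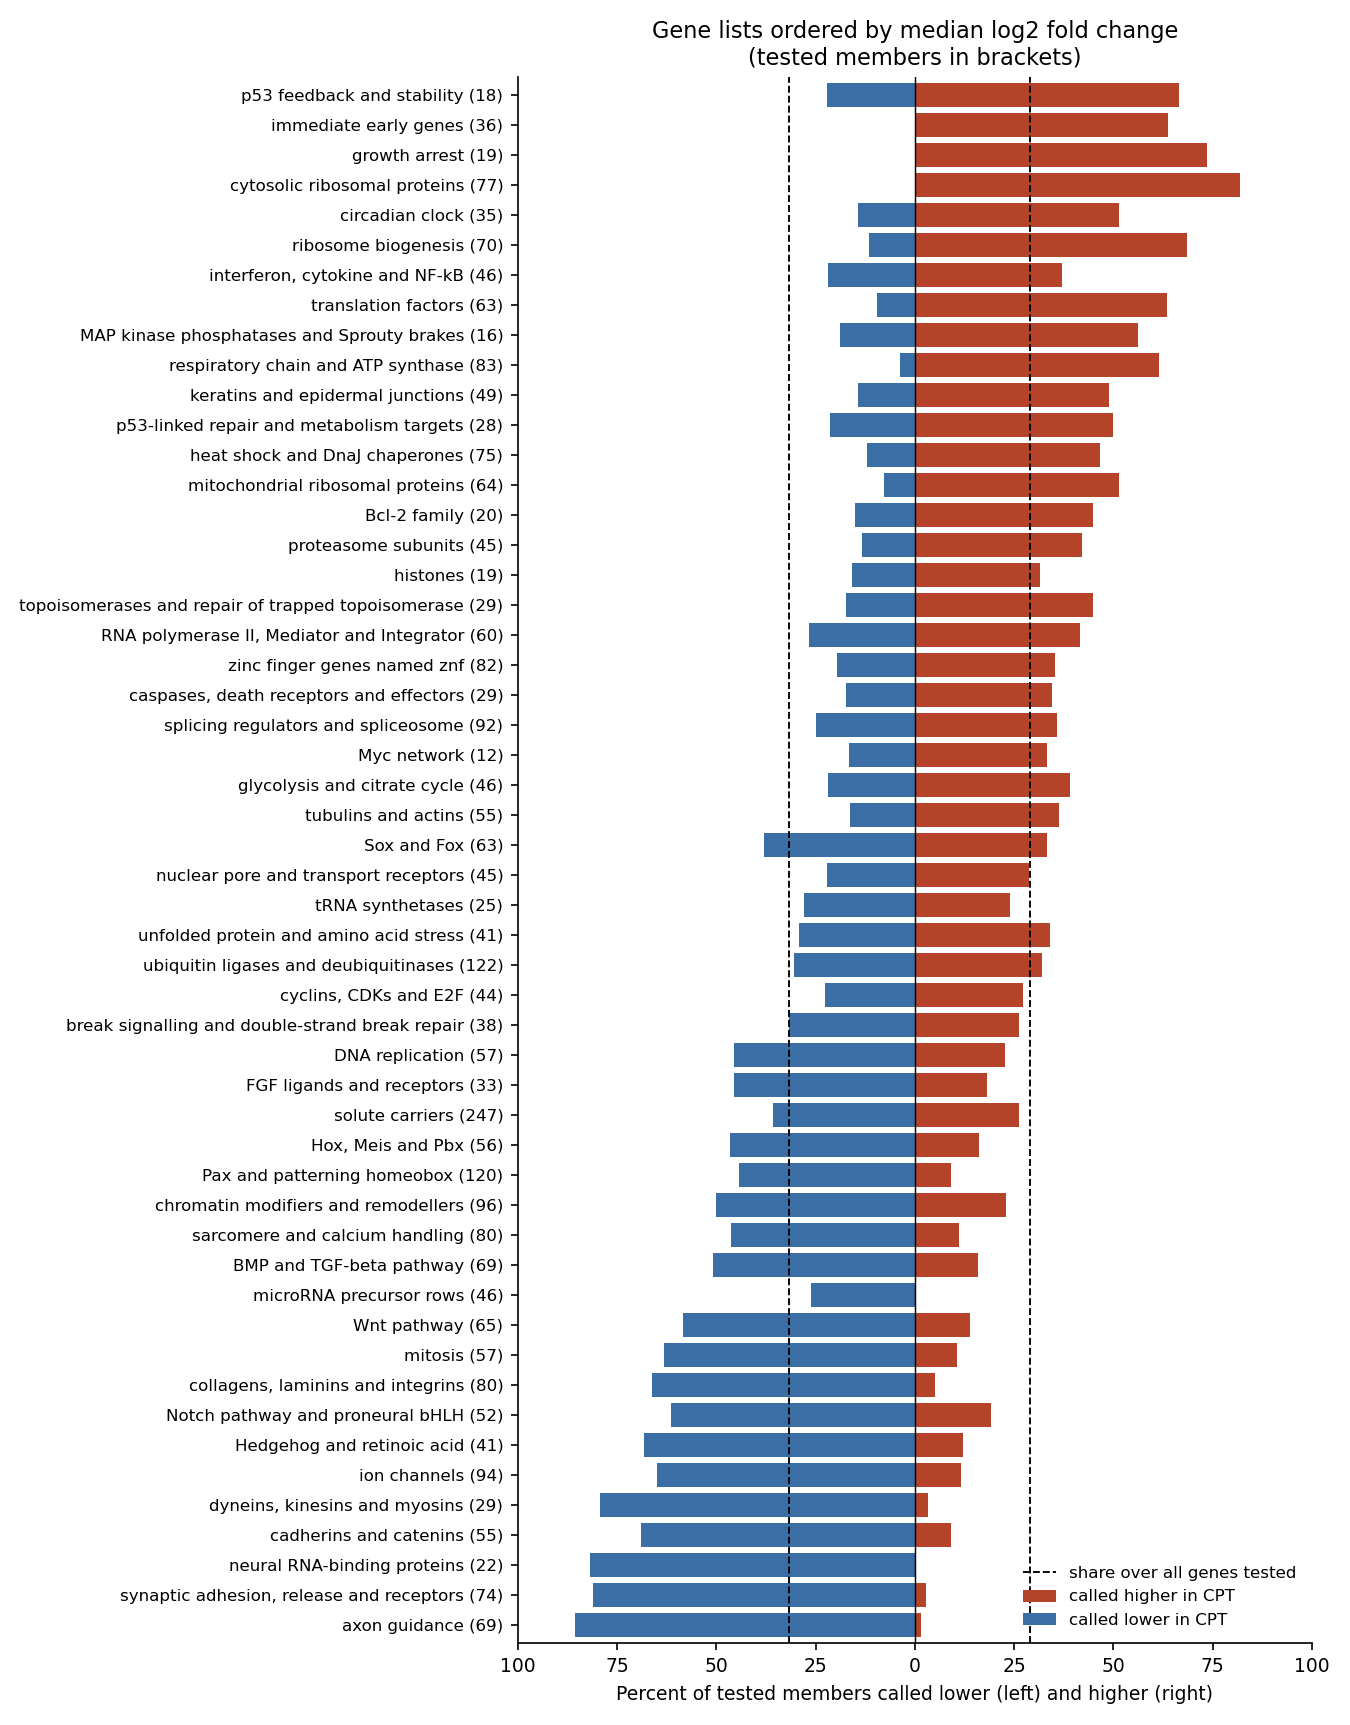
Percent of tested members called lower (left, blue) and higher (right, red) in CPT embryos for 52 pathway and family lists, ordered by median log2 fold change, with tested members in brackets and dashed lines at the shares over all genes tested (31.8% lower, 29.1% higher). Axon guidance, at the bottom, had 85.51% of its members lower, and cytosolic ribosomal proteins had 81.82% higher.

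Most members of a list of p53 feedback, p53 stability and related stress genes rose. Of 18 tested members of this list, 12 rose, 4 fell and 2 did not pass the test, with a median log2 fold change of 1.01 (10 higher and 4 lower with library totals). The gene mdm2, whose product marks p53 for degradation, had 108, 119 and 145 CPM in CPT and 21.2, 27.8 and 19.8 CPM in DMSO libraries. Each CPT library was well above every DMSO library, and the log2 fold change was 2.43 ± 0.16 (adjusted p = 6.71e-10). The partner gene mdm4, whose product restrains p53 without degrading it by itself, went the other way, with 54.6, 78.9 and 83.96 CPM in CPT and 95.3, 108 and 105 CPM in DMSO libraries. The groups did not overlap, and the change was -0.50 ± 0.13 (adjusted p = 0.00173).

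Stronger rises were seen among the stress brakes of the same list. The level of phlda3, which encodes a repressor of Akt, was 424, 380.0 and 441 CPM in CPT and 12.01, 11.1 and 10.7 CPM in DMSO libraries, a log2 fold change of 5.20 ± 0.13 (adjusted p = 2.58e-17). A row labelled zgc:136826, which RefSeq names rps27l, a relative of a ribosomal protein and a p53 target in mammals, had 679 ± 29.8 CPM in CPT embryos and 71.03 ± 1.93 CPM in DMSO embryos (SD, n = 3), a change of 3.26 ± 0.12. The stress gene tp53inp1 rose by 2.75 ± 0.12 and the sestrin gene sesn1, whose product restrains TOR signalling, by 2.08 ± 0.10. Among the atypical cyclins, ccng1 rose by 2.15 ± 0.53 at a low level (0.913 CPM in CPT and 0.209 CPM in DMSO embryos), and ccng2 fell by 0.75 ± 0.18, with 32.8, 37.7 and 32.96 CPM in CPT and 38.8, 59.9 and 74.7 CPM in DMSO libraries.

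Growth arrest genes rose without exception among the called members: 14 of 19 rose, 0 fell and 5 did not pass, with a median of 0.80 (12 higher and 0 lower with library totals). The CDK inhibitor gene cdkn1a (p21) read 394, 487 and 542 CPM in CPT and 6.47, 4.99 and 5.26 CPM in DMSO libraries. Within the CPT group library 1 was lowest and library 3 highest, and the log2 fold change was 6.41 ± 0.16. Another inhibitor gene, cdkn1ba (p27), had a higher DMSO level and changed less, with 143 ± 18.7 CPM in CPT embryos and 30.9 ± 0.581 CPM in DMSO embryos and a change of 2.21 ± 0.11. Of the Gadd45 stress sensors, gadd45aa had 159, 194 and 225 CPM in CPT and 4.74, 5.87 and 4.59 CPM in DMSO libraries and gadd45bb had 49.6, 74.2 and 90.02 CPM in CPT and 5.91, 6.44 and 5.43 CPM in DMSO libraries. Both were clear of the DMSO range in every CPT library, with changes of 5.25 ± 0.15 and 3.59 ± 0.21. The antiproliferative genes tob1a (1.68 ± 0.10) and btg2 (1.26 ± 0.11) rose less steeply, and btg2 had the highest level of the named arrest genes (698 CPM in CPT and 292 CPM in DMSO embryos).

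The apoptosis genes bbc3, pmaip1 and baxa rose, and the survival gene bcl2a fell. Across the Bcl-2 family, 9 of 20 members rose, 3 fell and 8 did not pass, with a median of 0.26 that came to 0.037 with library totals (6 higher, 3 lower). The BH3-only gene bbc3 (Puma) had 165, 192 and 198 CPM in CPT and 3.56, 3.75 and 4.37 CPM in DMSO libraries, a log2 fold change of 5.57 ± 0.13 and the smallest p of all genes (adjusted p = 1.44e-17). The other p53-induced BH3-only gene, pmaip1 (Noxa), had 33.5, 50.96 and 77.2 CPM in CPT and 6.003, 7.06 and 5.09 CPM in DMSO libraries. Its CPT libraries were well apart from one another and all above the DMSO range, and the change was 3.16 ± 0.30 (adjusted p = 1.84e-06). The pore-forming effector gene baxa read 159.9, 143 and 189.6 CPM in CPT and 47.2, 48.01 and 44.1 CPM in DMSO libraries (1.82 ± 0.12), while its copy baxb (0.06 ± 0.19) did not pass the test. On the survival side, bcl2a was low, with 0.944, 1.21 and 0.707 CPM in CPT and 3.33, 4.15 and 5.65 CPM in DMSO libraries, a change of -2.21 ± 0.30. Other survival genes did not follow it: bcl2l10 rose by 0.59 ± 0.12, and mcl1b, with 87.3, 66.9 and 75.5 CPM in CPT and 48.4, 87.02 and 97.6 CPM in DMSO libraries, overlapped between groups (-0.02 ± 0.21, adjusted p = 0.932). The rise of mcl1a by 0.24 ± 0.10 was lost with library totals (0.01, adjusted p = 0.956), and also with only the wild-type libraries (adjusted p = 0.0639) or without CPT library 3 (0.0523), DMSO library 1 (0.151) or DMSO library 2 (0.123).

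Downstream of the Bcl-2 family the caspases, death receptors and effectors were mixed. Of 29 members, 10 rose, 5 fell and 14 did not pass, with a median of 0.18 that turned to -0.05 with library totals (5 higher, 7 lower). The list's largest rise was the initiator caspase gene casp8, with 74.4, 81.2 and 98.8 CPM in CPT and 8.07, 8.52 and 8.15 CPM in DMSO libraries, a change of 3.36 ± 0.13 (adjusted p = 9.41e-14). The mitochondrial nuclease gene endog (1.01 ± 0.12) and the cytochrome c gene cycsb (0.66 ± 0.12) rose as well. Caspase 2 and its adaptor moved down together: casp2 had 8.26, 8.85 and 7.63 CPM in CPT and 15.8, 15.97 and 14.1 CPM in DMSO libraries (-0.89 ± 0.13), and cradd, which recruits caspase 2, had 0.327 CPM in CPT and 1.84 CPM in DMSO embryos (-2.40 ± 0.41).

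A further list held repair and metabolism genes linked to p53. Of its 28 members, 14 rose, 6 fell and 8 did not pass, with a median of 0.36 (10 higher and 8 lower with library totals). The largest rises were in rasl11b and rhoub. The gene rasl11b, which encodes a Ras-like protein, had 97.5, 109 and 147 CPM in CPT and 8.39, 7.899 and 6.33 CPM in DMSO libraries, a change of 3.97 ± 0.16, and rhoub, which encodes a small GTPase, had 271 ± 11.1 CPM in CPT embryos and 44.5 ± 3.27 CPM in DMSO embryos (SD, n = 3), a change of 2.61 ± 0.10. The sorting nexin gene snx11 rose by 2.49 ± 0.12, the transcription factor gene foxo3b by 2.40 ± 0.13, and sco2, needed to assemble cytochrome c oxidase, by 1.48 ± 0.12. Against them tp53i11b fell, with 0.768 ± 0.174 CPM in CPT embryos and 4.17 ± 0.802 CPM in DMSO embryos (SD, n = 3), a change of -2.47 ± 0.33.

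**Figure D3:**
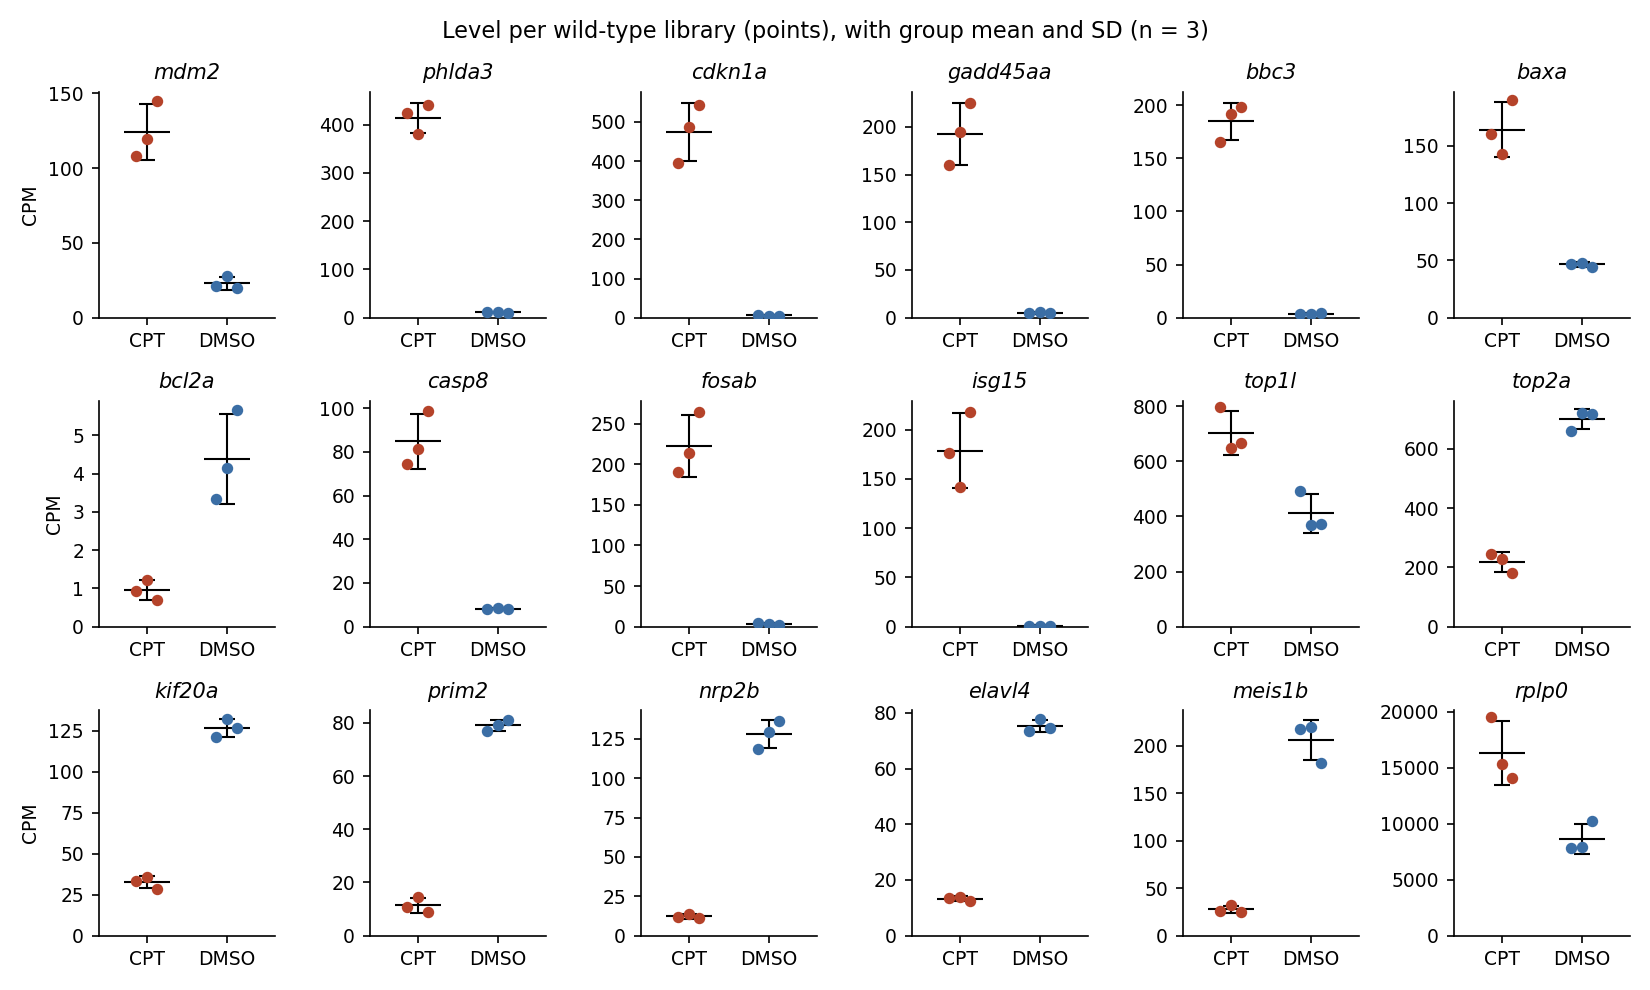
CPM per wild-type library (points, CPT left and DMSO right, each panel with its own axis from 0) with the mean and SD of 3 libraries for 18 genes. The groups do not overlap in any panel; cdkn1a spans 394 to 542 CPM in CPT libraries and 4.99 to 6.47 CPM in DMSO libraries.

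A gene for the drug's target rose, and the topoisomerase II genes fell. The gene top1b was sought by name, matched no single row and was not read. The row top1l, listed as top1a in RefSeq and encoding a topoisomerase I, had 796, 648 and 664 CPM in CPT and 492, 369 and 372 CPM in DMSO libraries, a rise of 0.77 ± 0.12 (adjusted p = 1.4e-05). The level of top2a, the form used by dividing cells, was 245, 228 and 182 CPM in CPT and 660.2, 721 and 717 CPM in DMSO libraries (-1.68 ± 0.12), and that of top2b, the form that neurons keep, was 103, 100.9 and 79.2 CPM in CPT and 347, 355 and 338 CPM in DMSO libraries (-1.88 ± 0.11). In the list of topoisomerases and repair of trapped topoisomerase as a whole, 13 of 29 members rose, 5 fell and 11 did not pass, with a median of 0.20 that turned to -0.03 with library totals (8 higher, 9 lower). Its leading rises were parp3, a break-sensing ADP-ribosyltransferase (49.2 CPM in CPT and 11.98 CPM in DMSO embryos, a change of 2.04 ± 0.12), and apex2, an abasic-site nuclease (1.01 ± 0.14).

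Genes of break signalling and repair were split much as all genes were. Of 38 members, 10 rose (26.32%), 12 fell (31.58%) and 16 did not pass, with a median of -0.11 (5 higher and 16 lower with library totals). Among factors that act at the broken end, the end-joining gene xrcc4 had 6.61, 6.11 and 5.84 CPM in CPT and 22.2, 22.6 and 19.9 CPM in DMSO libraries (-1.81 ± 0.14), and the MRN complex genes nbn and mre11a changed by -1.08 ± 0.13 and -0.84 ± 0.11. The recombination gene rad51b changed by -1.51 ± 0.21. Among factors of the stalled fork, atrip, the partner of the ATR kinase, rose, with 103, 100.9 and 95.2 CPM in CPT and 50.7, 55.4 and 47.6 CPM in DMSO libraries (0.96 ± 0.10), and tipin, which protects forks, rose at a low level (1.44 CPM in CPT and 0.618 CPM in DMSO embryos, 1.23 ± 0.34). The checkpoint kinase genes chek1 (0.22 ± 0.13, adjusted p = 0.144) and chek2 (-0.54 ± 0.35, adjusted p = 0.215) overlapped between the groups. Without DMSO library 1 chek1 passed the test (0.38, adjusted p = 0.0162).

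Genes of DNA replication fell more often than they rose, with 26 of 57 lower, 13 higher and 18 that did not pass, and a median of -0.12 (30 lower and 7 higher with library totals). The primase subunit gene prim2 had 10.7, 14.6 and 8.93 CPM in CPT and 76.9, 79.3 and 81.2 CPM in DMSO libraries, the largest fall of the list at -2.79 ± 0.16 (adjusted p = 1.54e-11). Its polymerase partner pola1 changed by -1.69 ± 0.13, and the helicase genes mcm2 and mcm5 by -1.16 ± 0.12 and -1.13 ± 0.11. The nucleotide salvage gene tk1 was higher in every CPT library, with 110.4, 121 and 135 CPM in CPT and 55.01, 43.4 and 45.7 CPM in DMSO libraries (1.35 ± 0.11). Among 44 cyclin, CDK and E2F genes, 12 rose, 10 fell and 22 did not pass, shares near those of all genes, and the median of -0.01 changed sign under several alternatives (7 higher and 15 lower with library totals). The G1 kinase gene cdk4 (1.07 ± 0.10) and the repressor e2f7 (1.17 ± 0.10) rose, whereas the E2F partner tfdp2 (-1.40 ± 0.10), the F-box cyclin ccnf (-1.10 ± 0.10) and cdk14 (-2.62 ± 0.29) fell.

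Genes of mitosis fell. Of 57 members, 36 (63.16%) fell, 6 (10.53%) rose and 15 did not pass, with a median of -0.66, and 36 had all CPT libraries below all DMSO libraries. The spindle checkpoint gene mad1l1 had 8.79, 10.6 and 7.29 CPM in CPT and 54.3, 51.1 and 50.8 CPM in DMSO libraries, a change of -2.55 ± 0.13. The DNA-binding gene cdca7a had 66.9, 82.2 and 69.6 CPM in CPT and 329, 291 and 277 CPM in DMSO libraries (-2.03 ± 0.12). Cytokinesis kinesin kif20a (33.6, 35.7 and 28.7 CPM in CPT and 121, 133 and 127 CPM in DMSO libraries) and the anaphase activator cdc20 (41.6 ± 3.99 CPM in CPT embryos and 137 ± 2.98 CPM in DMSO embryos, SD, n = 3) were lower by similar amounts, with changes of -1.96 ± 0.12 and -1.72 ± 0.11. The spindle checkpoint gene bub3 was the member that rose most, with 175 CPM in CPT and 95.8 CPM in DMSO embryos (0.87 ± 0.12). Relative to DMSO, the CPT libraries had list medians of -0.62, -0.61 and -0.55 on the log2 scale (pseudocount 0.5 CPM), so the fall was of like size in each.

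Immediate early genes, which stress and growth signals switch on within minutes, rose. Of 36 members, 23 rose, 0 fell and 13 did not pass, and 16 of them rose at least 2-fold, with a median of 0.94 (18 higher and 3 lower with library totals). The AP-1 gene fosab had 189.9, 213 and 265 CPM in CPT and 5.02, 3.62 and 2.55 CPM in DMSO libraries, a change of 5.91 ± 0.21 (adjusted p = 5.15e-13). Its relative fosl1a had 47.1, 47.4 and 56.1 CPM in CPT and 2.02, 2.47 and 1.95 CPM in DMSO libraries (4.54 ± 0.15), and the stress factor atf3 had 41.5, 43.2 and 60.9 CPM in CPT and 8.49, 6.49 and 5.77 CPM in DMSO libraries (2.82 ± 0.17). In each of these, CPT library 3 was the highest of the 3 CPT libraries and no DMSO library came near. The AP-1 gene junbb (2.31 ± 0.16) and ier2a (2.00 ± 0.13) rose too. Brakes on MAP kinase signalling rose in 9 of 16 members, fell in 3 and did not pass in 4, with a median of 0.39 (5 higher and 3 lower with library totals). Sprouty genes spry1 (1.02 ± 0.13) and spry4 (0.66 ± 0.11) and the phosphatase gene dusp7 (0.67 ± 0.11) rose, while dusp22a (-1.45 ± 0.22) and spred2b (-1.14 ± 0.14) fell.

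The ubiquitin-like gene isg15 had the largest log2 fold change of all genes tested, with 176, 142 and 218 CPM in CPT and 1.08, 1.103 and 0.382 CPM in DMSO libraries, a change of 7.71 ± 0.26 (adjusted p = 1.39e-12). The rest of the interferon, cytokine and NF-kB list moved both ways: 17 of 46 members rose, 10 fell and 19 did not pass, with a median of 0.41 (13 higher and 13 lower with library totals). The cytokine brake socs3a had 13.2, 16.9 and 26.04 CPM in CPT and 4.13, 3.04 and 3.14 CPM in DMSO libraries (2.45 ± 0.22). Among JAK and STAT genes, jak2b, stat3 and stat5b fell, with changes of -1.59 ± 0.12, -1.61 ± 0.13 and -1.86 ± 0.15. The copy jak2a was called higher, with a change of 0.56. Other familiar interferon-induced genes, named here after their values were seen, were divided. The antiviral gene rsad2 rose at a low level, with 0.354, 0.809 and 0.558 CPM in CPT and 0.0938, 0.132 and 0.0849 CPM in DMSO libraries (2.43 ± 0.65). The antiviral gene mxa had 1.15 CPM in CPT and 0.853 CPM in DMSO embryos (0.46, adjusted p = 0.256) and the signal transducer stat1a had 9.54 CPM in CPT and 10.1 CPM in DMSO embryos (-0.08, adjusted p = 0.677).

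Among chaperones of the heat shock and DnaJ families, 35 of 75 rose, 9 fell and 31 did not pass, with a median of 0.35 (22 higher and 15 lower with library totals). The collagen chaperone gene serpinh1a led, with 764, 580.4 and 535 CPM in CPT and 179, 181 and 147 CPM in DMSO libraries (1.89 ± 0.13), and the cochaperone genes hspbp1 (0.99 ± 0.13) and bag4 (0.95 ± 0.11) also rose. Against these dnajc17 (-2.02 ± 0.19) and dnajc15 (-1.43 ± 0.14) fell. The list of unfolded protein and amino acid stress held 14 higher and 12 lower members of 41, near the shares of all genes, with a median of 0.05 that turned to -0.18 with library totals (9 higher, 15 lower). One member stood out, si:ch211-160e1.5, which RefSeq names nupr1a, a small stress-induced nuclear protein. It read 445, 469 and 532 CPM in CPT and 50.7, 86.1 and 75.4 CPM in DMSO libraries (2.77 ± 0.16).

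Clock genes, which in zebrafish cells also respond to light and oxidative stress, rose in 18 of 35 members, fell in 5 and did not pass in 12, with a median of 0.51 (14 higher and 8 lower with library totals). The light-responsive repressor gene cry1aa had 58.4, 68.5 and 62.6 CPM in CPT and 14.7, 18.6 and 15.2 CPM in DMSO libraries (1.97 ± 0.13). Its relative cry1bb had 90.4, 90.2 and 117 CPM in CPT and 43.1, 32.2 and 32.99 CPM in DMSO libraries (1.46 ± 0.13). The repressor nfil3-6 rose by 1.71 ± 0.21 at a low level (7.31 CPM in CPT and 2.25 CPM in DMSO embryos), and the activator gene clocka fell by 1.65 ± 0.33, with 2.13 CPM in CPT and 6.803 CPM in DMSO embryos. The same list had a median of -0.03 in the mutants, and 0 of its members passed the test of a difference between genotypes.

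Ribosomal protein genes rose, by small amounts at high levels. Of 77 cytosolic ribosomal protein genes 63 (81.82%) rose, 0 fell and 14 did not pass, with a median of 0.65. With library totals 44 rose and 0 fell, with a median of 0.41. The ribosomal stalk gene rplp0 had 19555, 15298 and 14072 CPM in CPT and 7838, 7908 and 10215 CPM in DMSO libraries, a change of 0.91 ± 0.15 (adjusted p = 1.86e-05). The small-subunit gene rpsa had 12307 ± 1564 CPM in CPT embryos and 7119 ± 94.5 CPM in DMSO embryos (SD, n = 3), a change of 0.79 ± 0.13, and rps26 changed by 1.05 ± 0.16. The elongation factor gene eef1a1l1 had the largest gain in CPM of all genes, with 37871, 34207 and 26913 CPM in CPT and 18108, 17916 and 17959.9 CPM in DMSO libraries (0.87 ± 0.13). These genes were highest in CPT library 1 and lowest, though still above DMSO, in CPT library 3. Medians of the ribosomal protein list against the DMSO mean were 0.89, 0.64 and 0.37 in CPT libraries 1, 2 and 3, the order of the shares of counts in the top 10 genes (12.28%, 11.98% and 10.73%), and the part of that composition in the result was not tested. Reads of near-identical gene copies may be divided between rows here, so single ribosomal protein values are uncertain.

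Lists of ribosome biogenesis, translation factors and the respiratory chain also held more rises than falls, with smaller medians. Their members were not compared with genes of like abundance, so the part of abundance in these counts was not tested. Ribosome biogenesis had 48 of 70 members higher and 8 lower, with a median of 0.48 (33 higher and 11 lower with library totals). In it rrs1, a large-subunit assembly factor, had 232, 226 and 231 CPM in CPT and 84.9, 87.95 and 62.2 CPM in DMSO libraries (1.55 ± 0.16) and the processome gene utp4 rose by 1.19 ± 0.10, whereas bop1, another large-subunit factor, had 58.3, 50.01 and 34.8 CPM in CPT and 131, 126 and 118 CPM in DMSO libraries (-1.39 ± 0.14) and the nucleophosmin copy npm1b fell by 1.21 ± 0.15. Translation factors had 40 of 63 higher and 6 lower, with a median of 0.41 (24 higher and 9 lower with library totals). The helicase genes eif4a2 (1.23 ± 0.14) and eif4a1a (1.01 ± 0.11) rose, and the initiation factor copy eif3hb fell by 1.81 ± 0.18. Respiratory chain and ATP synthase genes had 51 of 83 higher and 3 lower (25 and 9 with library totals) with a median of 0.39, and none changed 2-fold. Their examples are ndufaf3, a complex I assembly factor (0.90 ± 0.12), and the ATP synthase gene atp5mc3a (0.81 ± 0.11). The fall of atp5l (119, 198 and 215 CPM in CPT and 342, 429.8 and 213 CPM in DMSO libraries, a change of -0.89 ± 0.29) rested on overlapping libraries and was not called without CPT library 1 (-0.63, adjusted p = 0.093), without DMSO library 2 (-0.65, adjusted p = 0.0929) or with no low-count filter (adjusted p = 0.0571).

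Mitochondrial ribosomal proteins rose in 33 of 64 members and fell in 5, with a median of 0.33 (18 higher and 10 lower with library totals), led by mrpl43 (1.07 ± 0.12) and mrpl36 (1.03 ± 0.11), while mrpl23 fell by 0.98 ± 0.21. Proteasome subunits rose in 19 of 45 and fell in 6, with a median of 0.24 (10 higher and 7 lower with library totals). The row psma6l had the largest change at a low level (1.96 CPM in CPT and 0.2201 CPM in DMSO embryos, 3.14 ± 0.49), ahead of the lid subunit psmd11a (0.83 ± 0.10). Glycolysis and citrate cycle genes had 18 of 46 higher and 10 lower, with a median of 0.13 that turned to -0.11 with library totals (8 higher, 13 lower), and none rose 2-fold. Pyruvate kinase pklr (0.86 ± 0.13) and fumarase fh (0.64 ± 0.09) rose, and the isocitrate dehydrogenase subunit idh3a fell by 0.70 ± 0.10. The tRNA synthetases were split, 6 of 25 higher and 7 lower (4 and 9 with library totals), with the mitochondrial enzymes yars2 at 0.84 ± 0.12 and vars2 at -1.22 ± 0.13. Their median was 0.06, and -0.19 with library totals.

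Single genes of the nuclear machinery fell steeply. The lists of RNA polymerase II and of splicing as wholes had smaller shares of lower members than all genes. In the list of RNA polymerase II, Mediator and Integrator, 25 of 60 members rose and 16 fell, with a median of 0.20 that turned to -0.03 with library totals (10 higher, 20 lower). The Integrator subunit gene ints8 read 6.08, 7.32 and 6.55 CPM in CPT and 74.7, 65.9 and 67.9 CPM in DMSO libraries, a fall of 3.38 ± 0.15 (adjusted p = 2.98e-13). The polymerase-associated gene polr2m rose by 1.73 ± 0.50 at a low level (1.61 CPM in CPT and 0.484 CPM in DMSO embryos). The Integrator gene ints7 changed by -2.16 ± 0.15 and the Mediator subunit med27 by -2.40 ± 0.15. Outside the list, the TFIID subunit gene taf6 was among the 10 smallest p of falling genes, with 5.9, 7.28 and 4.799 CPM in CPT and 66.8, 69.9 and 61.4 CPM in DMSO libraries (-3.47 ± 0.14). Splicing genes were spread over both directions, 33 of 92 higher and 23 lower, with a median of 0.16 that turned to -0.07 with library totals (19 higher, 32 lower). The splicing factor srsf2b rose by 1.03 ± 0.10, and the RNA-binding genes hnrnpdl (-1.78 ± 0.18) and hnrnpa0a (-1.38 ± 0.10) fell.

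Chromatin modifiers and remodellers fell in 48 of 96 members (50.0%), rose in 22 and did not pass in 26, with a median of -0.33 (55 lower and 9 higher with library totals). The deacetylase gene hdac4 had 0.826, 1.17 and 0.856 CPM in CPT and 10.3, 10.1 and 11.3 CPM in DMSO libraries (-3.46 ± 0.24), and the corepressor ncor1 had 10.9, 10.2 and 8.22 CPM in CPT and 41.9, 46.8 and 44.3 CPM in DMSO libraries (-2.19 ± 0.14). The demethylase gene kdm4b (-1.86 ± 0.12) and the AT-rich DNA-binding gene arid3b (-1.92 ± 0.12) fell too. The bromodomain gene brd2a rose, with 349.6, 419 and 393 CPM in CPT and 157, 145 and 122 CPM in DMSO libraries (1.45 ± 0.11). Zinc finger genes named znf had 29 of 82 higher and 16 lower, with a median of 0.19 that turned to -0.05 with library totals (16 higher, 21 lower). One of the falls was in znf609a (5.81 CPM in CPT and 48.2 CPM in DMSO embryos, -3.08 ± 0.20). Of 19 histone genes, 6 rose and 3 fell, with a median of 0.24 that came to 0.004 with library totals (4 higher, 3 lower), and the linker histone genes h1fx (-1.34 ± 0.12) and h1f0 (-0.87 ± 0.10) were among those lower.

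Ubiquitin ligases and deubiquitinases were close to all genes, with 39 of 122 higher and 37 lower, a median of 0.02 that turned to -0.21 with library totals (20 higher, 52 lower), and large changes in both directions. The ligase gene rnf139 had 58.9, 59.3 and 50.7 CPM in CPT and 15.9, 14.9 and 13.9 CPM in DMSO libraries (1.92 ± 0.12) and fbxo30a rose by 1.83 ± 0.12. In contrast usp13, a deubiquitinase, had 2.301, 2.56 and 2.53 CPM in CPT and 15.3, 15.4 and 16.3 CPM in DMSO libraries (-2.66 ± 0.20), and the large ligase gene rnf213a fell by 2.99 ± 0.41. Nuclear pore and transport receptors had 13 of 45 higher and 10 lower, with a median of 0.07 that turned to -0.17 with library totals (8 higher, 19 lower). Its importins differed from one another: kpnb1 rose by 0.89 ± 0.11, kpna2 fell by 1.27 ± 0.10, and ipo11 had 2.71, 4.72 and 2.01 CPM in CPT and 34.7, 37.4 and 33.5 CPM in DMSO libraries (-3.49 ± 0.22).

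Genes of axon guidance had the lowest median of the 65 lists. Of 69 tested members, 59 (85.51%) fell, 1 rose and 9 did not pass, 53 fell at least 2-fold, and the median was -2.23. The semaphorin coreceptor gene nrp1a had 12.3, 11.01 and 8.705 CPM in CPT and 118, 133 and 117 CPM in DMSO libraries, and its relative nrp2b had 11.98, 14.1 and 11.01 CPM in CPT and 119, 129 and 136 CPM in DMSO libraries. In both, every CPT library lay far below the DMSO range, with changes of -3.53 ± 0.15 and -3.38 ± 0.14 (adjusted p = 4.27e-13 and 9.63e-14). The midline receptor gene robo3 had 14.5, 16.9 and 12.3 CPM in CPT and 121, 133 and 115 CPM in DMSO libraries (-3.08 ± 0.14), and the Eph receptor gene epha4b had 2.71, 3.01 and 1.75 CPM in CPT and 29.8, 36.6 and 31.9 CPM in DMSO libraries (-3.74 ± 0.21). The plexin gene plxnb2a changed by -2.75 ± 0.16. The ephrin gene efnb2b was the member that rose, with 13.01 ± 1.402 CPM in CPT embryos and 8.73 ± 1.32 CPM in DMSO embryos (SD, n = 3), a change of 0.57 ± 0.17 that was not called with library totals (0.34, adjusted p = 0.0945). CPT library 3 had the deepest list median against the DMSO mean, -2.05, and libraries 1 and 2 had -1.62 and -1.71.

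Synaptic genes followed closely, with 60 of 74 (81.08%) lower, 2 higher, 12 that did not pass, and a median of -1.88. The scaffold gene dlg5a had 6.37, 8.99 and 5.803 CPM in CPT and 57.1, 58.9 and 55.9 CPM in DMSO libraries (-3.02 ± 0.15), and the scaffold gene dlg1 had 0.767, 1.12 and 0.744 CPM in CPT and 10.5, 8.25 and 10.9 CPM in DMSO libraries (-3.48 ± 0.25). The gephyrin gene gphna, which anchors inhibitory receptors, had 4.19, 3.06 and 2.72 CPM in CPT and 19.6, 21.1 and 21.9 CPM in DMSO libraries (-2.67 ± 0.17). The vesicle calcium sensor syt1a changed by -2.29 ± 0.16 and the postsynaptic scaffold homer3b by -1.83 ± 0.14. A synaptotagmin copy, syt5b, rose at a low level (2.52 CPM in CPT and 1.39 CPM in DMSO embryos, 0.85 ± 0.27), which was not called with library totals (0.63, adjusted p = 0.0599). The teneurin gene tenm3, whose product matches synaptic partners, had 5.55, 9.71 and 3.65 CPM in CPT and 127, 136 and 139.8 CPM in DMSO libraries, a fall of 4.42 ± 0.35.

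Of 22 genes for RNA-binding proteins of the nervous system, 18 fell, 0 rose and 4 did not pass, with a median of -1.62. The neuronal splicing regulator gene nova2 had 64.7, 65.97 and 54.1 CPM in CPT and 353, 404 and 419 CPM in DMSO libraries (-2.67 ± 0.14), and elavl4, which marks young neurons and stabilises their RNAs, had 13.5, 13.97 and 12.5 CPM in CPT and 73.6, 77.8 and 74.6 CPM in DMSO libraries (-2.50 ± 0.14). The musashi genes of neural progenitors fell by unequal amounts: msi1 had 38.5, 45.6 and 44.2 CPM in CPT and 147, 149 and 154 CPM in DMSO libraries (-1.81 ± 0.10), msi2b had 1.15 CPM in CPT and 13.8 CPM in DMSO embryos (-3.56 ± 0.21), and msi2a was nearly lost from CPT libraries. It had 0, 1 and 0 counts in CPT and 23, 29 and 21 counts in DMSO libraries, a CPT over DMSO ratio of summed counts of 0.012 (exact 95% interval 0.0003 to 0.0691). Leaving out a single CPT library moved its fitted change of -5.68 to -7.44 (without library 2) or -5.06 (without library 3). Of 94 ion channel genes, 61 (64.89%) fell and 11 rose, with a median of -1.01. The calcium channel gene cacna1sa, of skeletal muscle, had 7.32, 8.49 and 8.52 CPM in CPT and 41.3, 42.6 and 37.6 CPM in DMSO libraries (-2.31 ± 0.16), and its relative cacna1ba, of presynaptic endings, had 1.53, 2.43 and 2.23 CPM in CPT and 10.04, 10.2 and 8.96 CPM in DMSO libraries (-2.21 ± 0.22). The cation channel trpc4a changed by -2.51 ± 0.20. The potassium channel kcnh4a rose from a low level (1.12, 2.02 and 0.558 CPM in CPT and 0.188, 0.485 and 0.3396 CPM in DMSO libraries, 1.83 ± 0.51), and was not called without CPT library 2 (1.28, adjusted p = 0.055).

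**Figure D4:**
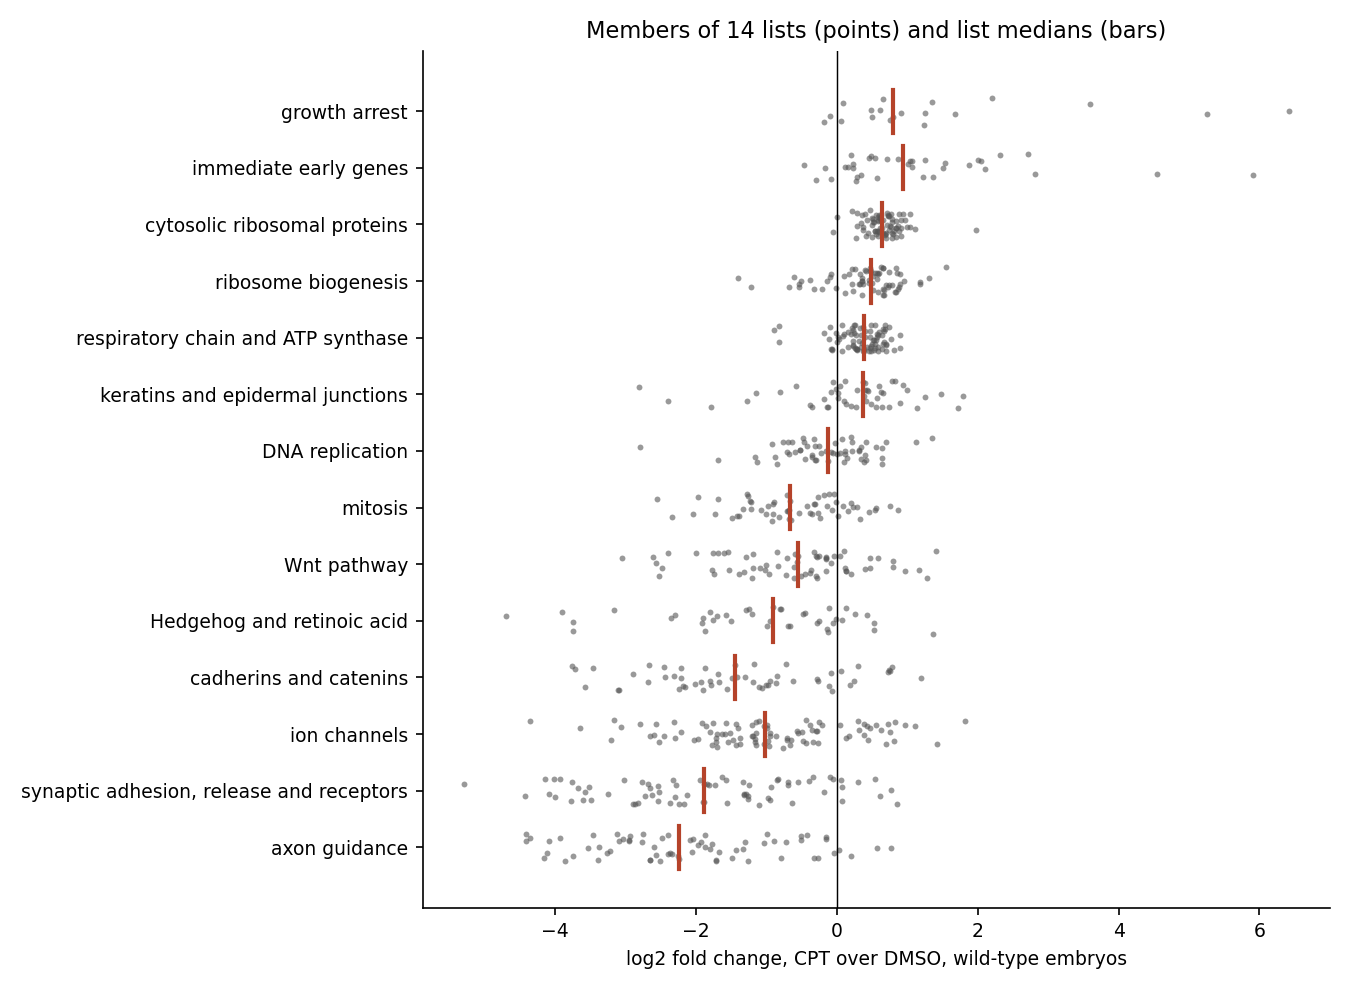
Log2 fold change of each tested member (points, spread vertically only for visibility) of 14 lists in wild-type embryos, with a red bar at each list median. Cytosolic ribosomal proteins run from -0.05 to 1.97, respiratory chain genes from -0.89 to 0.91 and ribosome biogenesis genes from -1.39 to 1.55. Axon guidance and synaptic genes reach from about 1 down to below -4 around medians of -2.23 and -1.88.

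Neural progenitor markers were lower too, and in RNA from whole embryos fewer cells of a type and less RNA per cell cannot be told apart. Of 13 progenitor markers 12 fell and 0 rose, with a median of -0.95, and their summed level was 1341 to 1537 CPM in the CPT libraries against 2229 to 2249 CPM in the DMSO libraries. These markers include msi1, msi2a, notch1a and cdh2, which are also given under other lists, so the lists are not separate observations. Markers of differentiating neurons changed less, with 6 of 15 lower and 3 higher (9 and 1 with library totals), a median of -0.24, and sums that overlapped between the groups (1568 to 1756 CPM in CPT, 1626 to 1776 CPM in DMSO). The part of cell numbers in the falls of the axon guidance and synaptic lists was not tested.

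Motor proteins of the cytoskeleton also fell. Among dyneins, kinesins and myosins 23 of 29 fell and 1 rose, with a median of -1.12. The myosin of sensory hair cells, myo7aa, changed by -2.01 ± 0.16, and the kinesin-binding gene kif1bp rose by 1.14 ± 0.18. The actin regulator enah, which acts in growth cones, was among the 10 smallest p of falling genes, with 3.54, 4.94 and 3.72 CPM in CPT and 45.8, 48.4 and 46.4 CPM in DMSO libraries (-3.52 ± 0.15). Solute carriers were near all genes, with 65 of 247 higher and 88 lower and a median of -0.15 (45 higher and 106 lower with library totals).

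Signalling pathways that pattern the embryo fell on balance. Notch pathway and proneural genes had 32 of 52 members lower and 10 higher, with a median of -0.76 (39 lower and 6 higher with library totals). The receptor notch1a had 140.1, 157 and 136 CPM in CPT and 282, 283 and 270.3 CPM in DMSO libraries (-0.95 ± 0.12), and mib1, the ligase that activates Notch ligands, had 41.1, 42.4 and 31.2 CPM in CPT and 152, 152 and 143 CPM in DMSO libraries (-1.96 ± 0.13). The nuclear effector copy rbpjb fell by 2.84 ± 0.24, and the copy rbpja was called higher, with a change of 0.66. The ligand gene dll4 rose, with 23.8, 29.4 and 32.6 CPM in CPT and 13.3, 13.6 and 13.7 CPM in DMSO libraries (1.08 ± 0.12). Wnt pathway genes had 38 of 65 lower and 9 higher, with a median of -0.54. The coreceptor lrp5 (13.2 CPM in CPT and 75.4 CPM in DMSO embryos), the kinase gsk3b (12.2 CPM in CPT and 48.6 CPM in DMSO embryos) and the repressor tcf7l1a (13.3 CPM in CPT and 78.5 CPM in DMSO embryos) changed by -2.52 ± 0.15, -1.99 ± 0.13 and -2.56 ± 0.13. The receptor fzd2 rose, with 221, 241 and 242 CPM in CPT and 96.6, 81.9 and 87.5 CPM in DMSO libraries (1.41 ± 0.09).

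Among FGF ligands and receptors 15 of 33 fell and 6 rose, with a median of -0.14. The receptor gene fgfr2 had 21.7, 25.7 and 16.5 CPM in CPT and 191, 215 and 219 CPM in DMSO libraries (-3.29 ± 0.19), fgfrl1a changed by -2.97 ± 0.15 and fgfr1a by -1.79 ± 0.18. Genes named fgf went both ways. Among them fgf13a fell, with 6.67, 6.16 and 3.83 CPM in CPT and 29.1, 27.6 and 33.6 CPM in DMSO libraries (-2.46 ± 0.21), and the ligand gene fgf2 rose, with 14.9, 15.1 and 15.4 CPM in CPT and 3.14, 3.35 and 2.12 CPM in DMSO libraries (2.40 ± 0.21). The hormone gene fgf23 had 6, 13 and 21 counts in the CPT libraries and 0 in each DMSO library. With 3 counts over the DMSO group taken as the limit of a count of 0, it was 11.7-fold higher, leaving aside counting error in the CPT counts. BMP and TGF-beta genes had 35 of 69 lower and 11 higher, with a median of -0.45 (37 lower and 5 higher with library totals). The receptor bmpr2b (2.28 CPM in CPT and 16.3 CPM in DMSO embryos, -2.88 ± 0.23) and the corepressor skia (9.82 CPM in CPT and 43.8 CPM in DMSO embryos, -2.15 ± 0.17) fell.

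Hedgehog and retinoic acid genes had 28 of 41 lower (68.29%) and 5 higher, with a median of -0.90. The transcription factor gene gli2b had 8.32, 11.4 and 5.84 CPM in CPT and 72.4, 84.2 and 71.5 CPM in DMSO libraries (-3.16 ± 0.18), and gli3, which also acts as a repressor, had 0.472, 1.48 and 1.38 CPM in CPT and 14.96, 16.6 and 15.2 CPM in DMSO libraries (-3.75 ± 0.25). The Hedgehog coreceptors boc (-1.91 ± 0.12) and cdon (-1.89 ± 0.11) fell together. The retinoid X receptor gene rxraa had 0.236, 0.315 and 0.409 CPM in CPT and 9.57, 8.25 and 8.19 CPM in DMSO libraries, one of the 10 largest falls (-4.69 ± 0.42), while rdh10b, which makes the retinoic acid precursor, rose by 1.37 ± 0.15. Hox, Meis and Pbx genes had 26 of 56 lower and 9 higher, with a median of -0.23 (35 lower and 2 higher with library totals). The largest falls were in Hox cofactors. The cofactor gene meis1b had 26.1, 32.1 and 25.2 CPM in CPT and 218, 219.9 and 182 CPM in DMSO libraries (-2.89 ± 0.12, adjusted p = 1.47e-13), meis2a changed by -2.62 ± 0.14 and pknox2 by -3.06 ± 0.19. The posterior gene hoxd10a rose by 0.81 ± 0.12.

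Other transcription factor families were divided. Pax and patterning homeobox genes had 53 of 120 lower and 11 higher, with a median of -0.28 (74 lower and 7 higher with library totals). The retinal determination gene dacha had 0.413, 1.93 and 0.521 CPM in CPT and 32.5, 29.3 and 32.1 CPM in DMSO libraries (-5.01 ± 0.48), which came to -5.98 without CPT library 2, and the mesenchymal repressor zeb2b changed by -2.51 ± 0.19. The homeobox gene six2b rose by 1.14 ± 0.14. Sox and Fox genes had 21 of 63 higher and 24 lower, with a median of 0.10 that turned to -0.14 with library totals (15 higher, 28 lower). The Fox gene foxi1 had 68.03, 75.5 and 99.3 CPM in CPT and 13.6, 11.8 and 11.1 CPM in DMSO libraries (2.74 ± 0.14), and sox4b, which accompanies differentiation of neurons, had 189.7, 201 and 207 CPM in CPT and 62, 48.1 and 54.3 CPM in DMSO libraries (1.86 ± 0.11). The endoderm gene sox32 had 13, 18 and 21 counts in CPT and 1, 0 and 1 counts in DMSO libraries, a ratio of 22.8 (exact 95% interval 6.004 to 193), and foxp1a fell by 1.52 ± 0.10. Of 12 genes in the Myc network 4 rose and 2 fell, with a median of 0.15 that turned to -0.08 with library totals (1 higher, 4 lower). The copy mycb rose, with 135, 173 and 197 CPM in CPT and 73.6, 73.4 and 64.6 CPM in DMSO libraries (1.26 ± 0.12), while mycn (0.18 ± 0.10, adjusted p = 0.11) and myca (-0.16 ± 0.10, adjusted p = 0.158) overlapped between the groups. With library totals myca passed the test (-0.39, adjusted p = 0.0045), and mycn passed without CPT library 1 (0.25, adjusted p = 0.0416) or DMSO library 2 (0.25, adjusted p = 0.0476).

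Cell adhesion genes fell. Cadherins and catenins had 38 of 55 members (69.09%) lower and 5 higher, with a median of -1.44. The neural catenin gene ctnnd2b had 14.9, 16.5 and 10.9 CPM in CPT and 88.8, 90.9 and 86.3 CPM in DMSO libraries (-2.66 ± 0.15), the cadherin gene cdh6 had 38.2, 34.02 and 34.2 CPM in CPT and 133, 132 and 124 CPM in DMSO libraries (-1.87 ± 0.09), and cdh2, the main cadherin of neural tissue, changed by -1.90 ± 0.13. The protocadherin pcdh1g32 rose by 1.198 ± 0.24 at a low level (4.97 CPM in CPT and 2.16 CPM in DMSO embryos). Collagens, laminins and integrins had 53 of 80 lower (66.25%) and 4 higher, with a median of -0.73 (62 lower and 2 higher with library totals). The fibronectin receptor subunit itga5 had 3.83, 3.86 and 3.199 CPM in CPT and 23.96, 29.8 and 27.5 CPM in DMSO libraries (-2.90 ± 0.15) and itga9 had 1.93 CPM in CPT and 16.8 CPM in DMSO embryos (-3.08 ± 0.23), while the matrix protease mmp2 rose, with 217, 223 and 244 CPM in CPT and 116, 109 and 114 CPM in DMSO libraries (1.02 ± 0.09). The heparan sulfate enzyme gene ndst1b, which is in no list, had the second smallest p of the falls, with 4.897, 6.88 and 4.65 CPM in CPT and 71, 68.7 and 64.7 CPM in DMSO libraries (-3.64 ± 0.15).

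Muscle lists held more falls than rises, and epidermal lists more rises than falls. Sarcomere and calcium handling genes had 37 of 80 lower and 9 higher, with a median of -0.37 (49 lower and 5 higher with library totals). The actin crosslinker actn1 had 54.5, 50.6 and 46.1 CPM in CPT and 209, 192 and 179 CPM in DMSO libraries (-1.94 ± 0.10) and the myosin chaperone unc45b changed by -0.94 ± 0.10. Skeletal muscle markers had 8 of 15 lower and 2 higher (11 and 1 with library totals), with a median of -0.64 and summed levels of 13970 to 18480 CPM in CPT and 16940 to 18150 CPM in DMSO libraries, which overlapped. The muscle transcription factor mef2ca had 15.9, 13.6 and 11.6 CPM in CPT and 66.1, 75.02 and 75.02 CPM in DMSO libraries (-2.40 ± 0.15), whereas myog, which starts the differentiation of muscle, rose, with 80.8, 82.6 and 103 CPM in CPT and 37.8, 47.6 and 48.4 CPM in DMSO libraries (0.99 ± 0.16). Keratins and epidermal junction genes had 24 of 49 higher and 7 lower, with a median of 0.38 (15 higher and 12 lower with library totals). The claudin-domain gene cldnd1a (1.79 ± 0.19) and cldn12 (1.00 ± 0.10) rose. The abundant keratin gene krt4 had 6031, 5277 and 3178 CPM in CPT and 2837, 2456 and 2883 CPM in DMSO libraries (0.83 ± 0.17), while tp63, the regulator of basal epidermis, had 1.36, 2.38 and 1.41 CPM in CPT and 8.96, 10.2 and 7.94 CPM in DMSO libraries (-2.39 ± 0.23). Epidermal markers summed to 17820 to 25990 CPM in the CPT libraries and 15700 to 16500 CPM in the DMSO libraries, with 8 of 12 higher and 1 lower (5 and 3 with library totals). Tubulins and actins had 20 of 55 higher and 9 lower, with a median of 0.11 that turned to -0.11 with library totals (7 higher, 17 lower), led by the Arp2/3 subunit arpc5b (1.40 ± 0.11).

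Vessel markers had a wide spread. Of 12 endothelial markers 7 fell, all of them at least 2-fold, and 3 rose, with a median of -1.38 and sums of 187.7 to 217.3 CPM in CPT against 274.4 to 285.3 CPM in DMSO libraries. The growth factor receptor gene flt4 had 7.02, 6.43 and 5.32 CPM in CPT and 36.7, 38.9 and 37.4 CPM in DMSO libraries (-2.60 ± 0.13), and its relative kdrl had 5.07, 4.94 and 3.09 CPM in CPT and 26.7, 26.6 and 28.3 CPM in DMSO libraries (-2.66 ± 0.16). The transcription factor sox7 of the same list rose, with 37.8, 49.2 and 50.4 CPM in CPT and 16.9, 15.7 and 16.4 CPM in DMSO libraries (1.49 ± 0.12). Myeloid markers had 4 of 9 higher and 4 lower, with a median of 0.08 that turned to -0.16 with library totals, the lineage factor spi1b at -1.89 ± 0.25 and cebpb at 1.04 ± 0.13. Hatching gland and yolk syncytial layer markers had 7 of 14 higher and 2 lower (3 and 3 with library totals), with a median of 0.33 and sums of 31640 to 33970 CPM in CPT against 26240 to 26870 CPM in DMSO libraries. Erythroid (6 of 11 lower, 0 higher), heart (6 of 11 lower, 0 higher), lens and retina (5 of 13 lower, 1 higher), neural crest and pigment (7 of 13 lower, 2 higher; 8 and 1 with library totals) and notochord and cartilage markers (4 of 9 lower, 2 higher; 4 and 0 with library totals) had medians of -0.35, -0.32, -0.31, -0.49 and -0.23. Within them the carbonic anhydrase gene cahz of red cells (-1.76 ± 0.12) and the lens crystallin cryba2a (-1.20 ± 0.15) fell. With library totals 8 of 13 lens and retina markers were lower and 1 higher. The rows of the erythroid genes gata1a and alas2, of the macrophage gene mpeg1.1 and of the vessel receptor flt1 were listed at 0 in all 6 wild-type libraries, so these markers could not be read.

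MicroRNA precursor rows were counted from polyadenylated RNA and so reflect primary transcripts, not mature microRNAs. Only 46 of 340 such rows passed the filter, of which 12 fell, 0 rose and 34 did not pass the test. The neural precursor mir9-6 had 1.298, 1.75 and 1.67 CPM in CPT and 7.64, 8.296 and 7.81 CPM in DMSO libraries (-2.31 ± 0.23), and mir9-1 changed by -2.18 ± 0.43. The muscle precursor mir133a-2 had 0, 0.1797 and 0.335 CPM in CPT and 2.53, 2.29 and 2.72 CPM in DMSO libraries (-3.66 ± 0.43), a fitted value that came to -4.51 without CPT library 3. The epithelial precursor mir205 had 1.83, 4.18 and 8.04 CPM in CPT and 18.5, 14.1 and 18.4 CPM in DMSO libraries (-1.81 ± 0.33). The row mir34, listed as mir34a in RefSeq and deleted in the mutants, did not pass the filter. It had 9, 9 and 32 counts in the CPT libraries and 0, 1 and 0 in the DMSO libraries. The ratio of summed counts over library totals was 43.9 (exact 95% interval 7.52 to 1766, counting error only), the groups did not overlap, and the exact two-sided permutation p was 0.1, the smallest that 3 against 3 libraries can give. All 6 mutant libraries had 0 counts.

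Several of the steepest changes lay outside the lists. Among the 10 smallest p of rising genes, the GTP-binding gene gtpbp1l had 176, 138 and 175 CPM in CPT and 15.5, 13.7 and 11.7 CPM in DMSO libraries (3.58 ± 0.13). The gene bmb, known for its role in the fusion of nuclei in the early zebrafish embryo, had 126, 119 and 165 CPM in CPT and 13.2, 11.1 and 10.1 CPM in DMSO libraries (3.57 ± 0.13). The apelin receptor gene aplnrb had 225, 219 and 287 CPM in CPT and 31.9, 27.4 and 27.9 CPM in DMSO libraries (3.07 ± 0.12). In none of the 3 did the groups come within 4-fold of each other. Among falling genes, the scaffold caska had 25.8, 25.4 and 22.3 CPM in CPT and 119.7, 120.0 and 112 CPM in DMSO libraries (-2.26 ± 0.10), the paraspeckle gene pspc1 had 10.5, 9.84 and 9.97 CPM in CPT and 65.6, 61.96 and 64.4 CPM in DMSO libraries (-2.66 ± 0.12), and the inhibitory G protein gene gnai2a had 12.6, 13.5 and 11.01 CPM in CPT and 75.4, 77.8 and 76.8 CPM in DMSO libraries (-2.63 ± 0.12). Among the largest falls by fold were those of gfra2a and luzp2. The GDNF family receptor gene gfra2a had 1, 0 and 1 counts in CPT and 30, 65 and 34 counts in DMSO libraries, a CPT over DMSO ratio of 0.0136 (exact 95% interval 0.00163 to 0.0501). The row luzp2 had 1, 0 and 0 counts in CPT and 18, 34 and 17 counts in DMSO libraries, a ratio of 0.0127 (0.000317 to 0.0732). Large falls at higher counts were those of fndc3ba (0.721 CPM in CPT and 22.5 CPM in DMSO embryos, -4.94 ± 0.35), tbc1d22a (0.293 CPM in CPT and 9.41 CPM in DMSO embryos, -4.93 ± 0.28) and nkain2 (0.306 CPM in CPT and 8.17 CPM in DMSO embryos, -4.66 ± 0.31). Without single CPT libraries the fitted change of luzp2, -5.59 over all, ran to -7.39 (without library 1) or -4.97 (without library 3), and that of fndc3ba to -5.89 (without library 2). By loss of CPM, the cold-inducible RNA-binding gene cirbpb was lowest against DMSO, with 1902, 2062 and 1863 CPM in CPT and 3659, 3951 and 3736 CPM in DMSO libraries (-0.96 ± 0.12).

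The mutants served to ask whether the response was particular to wild-type embryos. Of the 7219 genes called in wild-type embryos, 6936 (96.08%) changed with the same sign in miR-34a-/- embryos, 5737 were called there in the same direction and 29 in the opposite one. Mutants had 3382 genes (28.5%) higher and 3763 (31.7%) lower. Of the 2785 wild-type changes of 2-fold or more, 2539 were called in the same direction in mutants and 0 in the opposite one. Over the 11866 genes the Spearman coefficient of the log2 fold changes was 0.8777, from comparisons that share no libraries but share the scaling and the annotation. The p53 genes moved by like amounts, for example cdkn1a by 6.41 in wild-type and 6.29 in mutant embryos, and bbc3 by 5.57 and 6.11. The list medians of axon guidance were -2.23 in wild-type and -2.25 in mutant embryos, and those of ribosomal proteins 0.65 and 0.61.

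The test of the difference itself called 19 genes (0.16%), in 16 of which the wild-type change was above the mutant one (0.135%) and in 3 below it (0.0253%). The TMM factors were 1.007 to 1.029 in mutant CPT and 1.02 to 1.086 in mutant DMSO libraries. Those of the wild-type CPT libraries were lower, at 0.8349 to 0.9618. The part of that composition in these counts was not tested. Without adjustment the difference passed at 0.05 in 1797 genes (15.1%), and DESeq2 called 333. The count was not stable to leaving out single wild-type libraries, with 31 genes without CPT library 1, 0 without CPT library 2, 505 without CPT library 3, and 112, 0 and 1 without DMSO libraries 1, 2 and 3. The ribosome biogenesis helicase gene ddx54 had 263, 239 and 247 CPM in CPT and 114, 94.4 and 92 CPM in DMSO libraries, with changes of 1.32 in wild-type and 0.48 in mutant embryos (difference 0.84, adjusted p = 0.0195). The heme synthesis gene alas1 changed by 1.41 and 0.59 (difference 0.82, adjusted p = 0.0195). With library totals neither difference was called (adjusted p = 0.0677 for both). The cardiac actin gene actc1a rose by 0.56 in wild-type embryos and stood at -0.41 in mutants. In none of the 65 lists were more than 2 members called for the difference.

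**Figure D5:**
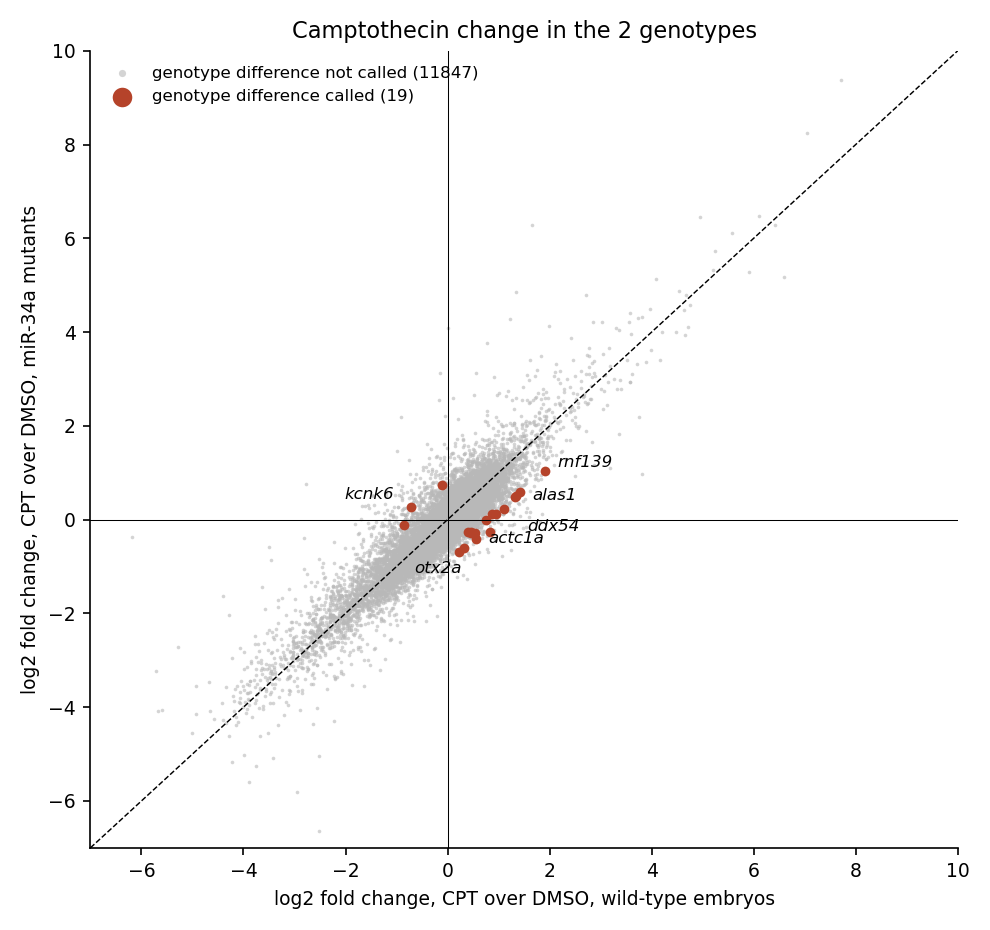
Log2 fold change of CPT over DMSO in wild-type embryos (horizontal axis) and in miR-34a-/- embryos (vertical axis) for 11866 genes, with the dashed line of equal change and the 19 genes called for the genotype difference in red. Most genes lie along the line, and of the 19 called genes rnf139 has the largest wild-type change, at 1.92, with 1.04 in mutant embryos.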

How the data were processed

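Poly-A RNA from pools of 30 to 50 whole embryos, with RNA integrity numbers of 8 or more, was fragmented with RNase III and sequenced on an Ion Proton, per the labels' protocols. The authors deposited raw counts per gene for 12 libraries. The submitters' processing notes name Trim Galore 0.4.4, STAR 2.7, Bowtie2, Picard 2.5.0, HTSeq 0.9.1 and the danRer11 genome, without their order. Whether counting used strand is not given in the sources used here, so overlapping, antisense and near-identical genes are uncertain. No column belonged to other samples (0).

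Counts were analysed in R 4.3.3 with edgeR 4.0.16 (filterByExpr by group, TMM factors, robust quasi-likelihood fit of 4 group means over 12 libraries with 8 residual degrees of freedom). The threshold for a call was 0.05 on the Benjamini-Hochberg adjusted p over all 11866 genes tested, and the interaction contrast tested the wild-type change minus the mutant change. Standard errors are the log2 fold change divided by the square root of its F statistic. Only the edgeR fit and its wild-type contrast were tested on simulated counts. The simulation changed few genes, as many up as down, so it did not test the fit where most genes change. The alternatives were limma-voom (limma 3.58.1), DESeq2 1.42.0, other scalings and filters, a replicate block, a 1.5-fold threshold (glmTreat), the wild-type libraries alone, and leaving out each wild-type library. Intervals on counts are exact and cover counting error only.

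The members and the 65 gene lists were chosen with earlier results of these data known. Genes were named by fixed rules: the 10 smallest p and the 10 largest changes in each direction (group mean of at least 1 CPM, groups that do not overlap), the 10 largest gains and losses in CPM, up to 5 called members of each list with the smallest p and 1 against its majority, a list of damage-response genes, and the smallest interaction p. Of the 15265 gene names 15086 matched RefSeq (GRCz12tu), used for names only. Several damage-response genes, among them the kinases atm and atr, were not analysed here, a few genes and 1 list are not reported here, and descriptions by protein length and promoter motif were not run.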

Additional observations from a re-analysis of the deposited data

Results flagged for a closer look

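For 7 of the named genes the change under CPT differed between wild-type and mutant embryos by the test of the difference itself (edgeR's quasi-likelihood interaction contrast). The genes that rose more in wild-type embryos were ddx54, a ribosome biogenesis helicase (difference 0.841 on the log2 scale), alas1, which starts heme synthesis (0.819), the ubiquitin ligase gene rnf139 (0.881) and wbp2nl (0.818). For these, all wild-type and mutant changes were above 0: 1.32 and 0.48 for ddx54, 1.41 and 0.59 for alas1, 1.92 and 1.04 for rnf139, and 0.94 and 0.13 for wbp2nl. The other 3 had opposite signs in the genotypes. The homeobox gene otx2a, which patterns the forebrain, changed by 0.33 in wild-type and -0.61 in mutant embryos (difference 0.934), the actin gene actc1a by 0.56 and -0.41 (0.969), and the potassium channel gene kcnk6 by -0.71 and 0.26 (-0.967). The adjusted p was 0.0347 for rnf139 and 0.0195 for the other 6. The wild-type call of otx2a was lost with library totals and without DMSO library 3. With library totals the difference was called for 2 of the 7, actc1a (adjusted p = 0.0388) and kcnk6 (0.00944), and not for ddx54 and alas1 (0.0677 each), otx2a (0.0832), wbp2nl (0.0852) or rnf139 (0.0873). For rnf139 it was also not called without CPT library 1 (0.0517), and for none of the 7 was it called against a 1.5-fold change. No gene was called for the difference without CPT library 2 or without DMSO library 2, and 1 gene, none of these 7, was called without DMSO library 3.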

How the results depend on the processing

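Scaling by library totals left 2025 genes higher and 4794 lower in CPT embryos, and the test against a 1.5-fold change left 1012 higher and 2098 lower. The other alternatives kept both counts within 1.5 times the reported 3450 and 3769. These were size factors of the DESeq2 type (3605 and 3656), DESeq2 (3593 and 3643), limma-voom (3479 and 3828), no low-count filter (3674 and 3598), a minimum of 1 CPM in 3 libraries (3367 and 3663) and the wild-type libraries alone (3339 and 3590). Leaving out 1 wild-type library gave 3056 to 3572 higher and 3357 to 3548 lower genes. Deviations of same-numbered CPT and DMSO libraries had r = -0.01, 0.14 and 0.08, and those of differently numbered libraries -0.13 to 0.05. The values 0.14 and 0.08 were the highest. The labels do not mark the numbers as pairs, and the numbers were not taken as pairs. With a replicate block the counts were 3469 and 3787, and 25 for the genotype difference. That difference, called for 19 genes, was called for 7 with library totals, 333 with DESeq2, 35 with no filter, 0 against 1.5-fold, and 0 to 505 without 1 library. The causes were not tested. Of the 400 genes in the named set, 9 were no longer called with library totals and 72 against a 1.5-fold change. No gene called in either setting changed sign, and sign changes of uncalled genes were not counted. The ratio for mir34a ran from 9.73 to 54.9 without 1 library. The lowest used the limit of 3 counts for DMSO, without the DMSO library that held its count. Genes under 1 CPM had a median SE of 0.49, so changes well under 2-fold were often not detectable there.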

Other observations

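The zebrafish genome keeps many genes as pairs of copies, written with an a and a b at the end of the symbol. Of 1123 symbol pairs of this form with both members tested, 120 had both higher in CPT embryos, 244 both lower and 102 opposite calls. Another 487 had 1 member called and 170 had neither. Over all genes tested 29.1% were called higher and 31.8% lower, and the number of opposite pairs was not tested against these shares. Matching was by symbol alone, so separate genes such as top2a and top2b are counted among these pairs. The log2 fold changes of the paired members had a Spearman coefficient of 0.444 across pairs, given as a description since pairs share libraries. Among the opposite pairs, asic1a, an acid-sensing channel, changed by 2.68 ± 0.24 and asic1b by -2.65 ± 0.46. The polarity gene pard6ga changed by 3.89 ± 0.99 and pard6gb by -1.16 ± 0.12, and the Ras-like rasl11a by -0.94 ± 0.15 and rasl11b by 3.97 ± 0.16. The Notch effector copies rbpja and rbpjb changed by 0.66 ± 0.10 and -2.84 ± 0.24, the small GTPase copies rhoua and rhoub by -0.75 ± 0.19 and 2.61 ± 0.10, and the kinase copies jak2a and jak2b by 0.56 ± 0.10 and -1.59 ± 0.12. The retinol dehydrogenase copies rdh10a and rdh10b changed by -0.90 ± 0.13 and 1.37 ± 0.15, and the nucleophosmin copies npm1a and npm1b by 0.57 ± 0.14 and -1.21 ± 0.15. Where copies are near-identical, reads may be split between them. These pairs were chosen after their values were seen.

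Some genes were counted under 1 treatment only. Of the 15265 rows, 40 had counts in each CPT library and 0 in each DMSO library, and 21 the reverse. CPT libraries 2 and 3 held more counts than any DMSO library, and the part of depth in this was not tested. Most rows counted under 1 treatment only had few counts and did not pass the filter. Among those tested, the cerebellin gene cbln12 had 10, 19 and 25 counts in CPT libraries, 15.8-fold higher against the limit of 3 counts over the DMSO group. The row tmem54b had 3, 15 and 10 counts in CPT libraries, 8.19-fold higher against the same limit. The carboxypeptidase gene agbl4 was counted only in DMSO libraries, and was 11.4-fold lower against the limit of 3 counts over the CPT group. These folds leave aside counting error in the treatment that had counts.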
